A study of Mus musculus with 12 samples.

Results

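The 33 genes described here belong to autophagy, the route that delivers cell contents to the lysosome, and to the lysosome itself. They were taken by name from 24568 genes that could be tested. Each gene was read through every probe whose transcript accession belonged to it, and the brightest probe was used where there were several. All 33 had a probe, 40 probes in all, and all 33 passed the filter on dim probes. The study asked which RNAs differ in C2C12 cells when the long noncoding RNA MEG3 is overexpressed or knocked down. C2C12 is a mouse myoblast line that divides as single cells and can fuse into myotubes. RNA was collected 72 h after transfection from 4 groups of 3 arrays each: cells given a negative control, the empty expression plasmid pcDNA3.1, the plasmid pcDNA3.1-MEG3, or siRNA. The labels do not say what the negative control was or give the siRNA sequence. All groups were the same line.

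Autophagy starts when the kinase ULK1 and a lipid kinase complex that holds Beclin 1 mark a membrane, to which WIPI proteins bind. A ubiquitin-like cascade (ATG7, ATG3 and the ATG12-ATG5 conjugate) then attaches small ATG8 proteins (the LC3 and GABARAP families) to the growing membrane, and receptors such as p62, the product of Sqstm1, tie cargo to them. The closed autophagosome fuses with a lysosome, where proteases and glycosidases digest the cargo at the low pH kept by a proton pump, while membrane proteins hold the wall together and export cholesterol and calcium. The transcription factor TFEB switches on many of these genes through a short promoter sequence, an E-box with the core CACGTG. In muscle the pathway clears damaged organelles and is active while myoblasts become myotubes.

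The E-box core is shown because it is the promoter sequence that this gene group is known for. RefSeq promoter windows, from 250 bases before to 50 bases after a gene's start on GRCm38.p6, were held for 27 of the 33 genes. The letters CACGTG, which read the same on both strands, occurred in 10 of 27 genes (37%), against 8.09% of 27025 genes. The longer form GTCACGTG, or CACGTGAC on the other strand, which always contains the core, occurred in 8 of 27 (29.6%), against 2.55% of all genes. Of the 119 other pathway genes with a window, 25 (21%) held the core. The stretches below run 5′ to 3′ on the gene's strand with the core in capitals. Ctsd and Gla were chosen because their signals went opposite ways on the arrays, Lamp1 because its window held 4 cores, and Mcoln1 and Atg7 as a channel and a conjugation enzyme with the same core. A match of letters is a description and not a measured binding site.
Ctsd: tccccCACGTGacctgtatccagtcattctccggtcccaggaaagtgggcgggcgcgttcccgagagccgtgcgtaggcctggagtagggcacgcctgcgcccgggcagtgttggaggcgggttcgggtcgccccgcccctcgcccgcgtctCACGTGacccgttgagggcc
Gla: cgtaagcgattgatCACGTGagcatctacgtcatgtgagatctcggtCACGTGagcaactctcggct
Lamp1: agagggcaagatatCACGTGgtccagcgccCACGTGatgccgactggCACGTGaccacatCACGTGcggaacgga
Mcoln1: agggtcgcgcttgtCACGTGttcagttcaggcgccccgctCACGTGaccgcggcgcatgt
Atg7: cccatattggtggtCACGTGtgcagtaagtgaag
On GRCm38.p6 these lie before the gene start, at chr7:142387906-142388077 on the minus strand for Ctsd and chrX:134601180-134601246 on the minus strand for Gla. The Lamp1 stretch is at chr8:13159086-13159160, that of Mcoln1 at chr8:3500434-3500493 and that of Atg7 at chr6:114670950-114670983, all on the plus strand. Of the 9 genes with a window that were brightest on the arrays labelled pcDNA3.1-MEG3, 2 held the longer form, and of the 8 dimmest on the siRNA arrays, 2 did.

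Values below are log2 signals with the array's 75th percentile set to 0, so that 1 unit is a doubling; they are compared between groups for 1 probe, never between genes. Replicates 1 and 3 of each group were averaged to 1 sample, because in the plasmid and siRNA groups they shared a slide position and differed by 0.29 to 0.43 times the noise between spots of an array. In the negative control they had positions of their own but differed by 1.01 times that noise. Each group therefore had n = 2 samples, written below as replicates 1 and 3 first and replicate 2 second. In the plasmid and siRNA groups replicate 2 differed from replicates 1 and 3 by 1.07 to 1.25 times the noise between spots. This is near the 1.01 at which the negative control pair was averaged. The spread between the samples of these groups was therefore close to that between spots. Nothing says that samples came from separate cultures, so p-values measure the spread between these samples only. Between 61.2% and 75.8% of 39429 probes were well above background per array, the fewest on siRNA arrays. MEG3 itself went against the plasmid labels: its probe A_51_P455997 exceeded background by the scanner's flag on 3 of the 3 pcDNA3.1 arrays (-2.48 to -2.38), but on 0 of 3 in the pcDNA3.1-MEG3 group (-7.93 to -6.58), 1 of 3 in the negative control and 0 of 3 in the siRNA group. Its probe A_55_P2033407 exceeded background on 3 of 3 pcDNA3.1 arrays and on 0 of 3 in each other group. The third probe, A_52_P196568, did so on 0 of 3 arrays in every group. The deposited names of the arrays were mixed as well. Those labelled pcDNA3.1-MEG3 carried the names pcDNA3.1 and MEG3 overexpression, and those labelled pcDNA3.1 carried neither. Groups are therefore named by the labels of their arrays, every direction between plasmid groups holds for the labels only, and the knockdown could not be checked. Negative control replicate 2 stood apart from replicates 1 and 3 (4.61 and 5.21 times the spot noise). Over the 33 genes its median distance from them was 0.53, with 18 genes over 0.5, whereas the medians in the other 3 groups were 0.064 to 0.112 with 0 genes over 0.5.

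Sqstm1, Wipi1 and the lysosomal genes Neu1, Npc2 and Ctsd were brightest on the arrays labelled pcDNA3.1-MEG3 and dimmest on the siRNA arrays. For Ctsd the second of these held on the probe used but not on its other probe. Of the 32 genes with a value on every array, 11 (34.4%) read higher on all 3 arrays labelled pcDNA3.1-MEG3 than on any of the other 9, against 7.78% of all genes with complete values. They were Sqstm1, Ctsz, Npc1, Ctsd, Atp6v0d1, Npc2, Wipi1, Becn1, Neu1, Grn and Map1lc3b, with gaps to the nearest other array from 0.70 for Sqstm1 down to 0.012 for Map1lc3b. On the siRNA arrays 8 of 32 (25%) read lower than on any other array, against 7.63% of all genes: Sqstm1, Wipi1, Neu1, Ctsl, Atg7, Npc2, Gabarap and Ctsd, with gaps from 0.26 to 0.0087. Gla and Lamp2 were the 2 genes lowest on the arrays labelled pcDNA3.1-MEG3 (10.1% of all genes), Lamp2 on the probe used but not on its other probe, and Gusb was the gene highest on the siRNA arrays (13.5% of all genes). Without negative control replicate 2 the counts were 15 of 32 above for pcDNA3.1-MEG3 (10.3% of all genes) and 9 below for siRNA (12% of all genes). Without negative control replicates 1 and 3 they were 11 (8.52%) and 10 (10.7%). These counts have no test of their own.

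**Figure D1:**
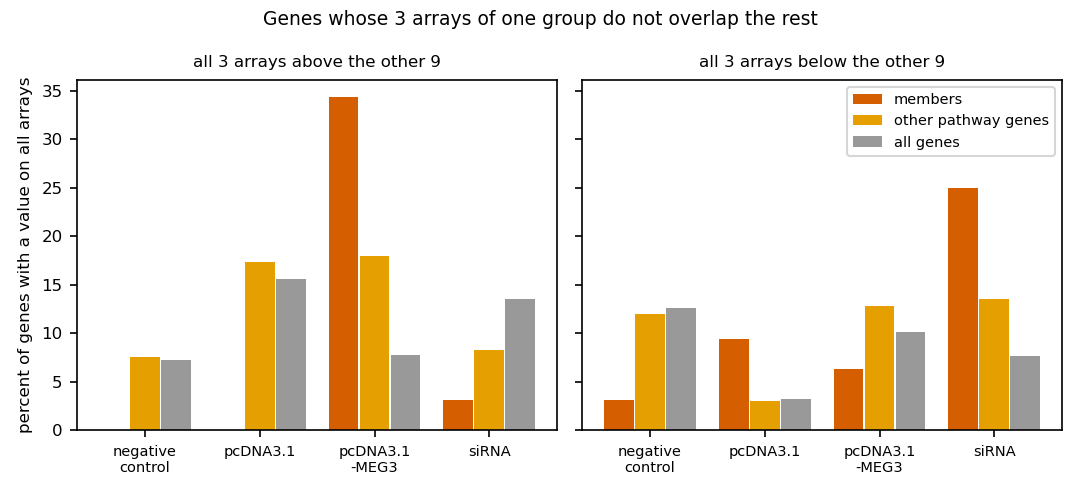
Percentage of genes (y axis) whose 3 arrays of 1 group (x axis) lie all above (left) or all below (right) the other 9 arrays, for the 32 autophagy and lysosome genes with complete values, for other genes of the pathway, and for all genes. The bars for these genes stand out above on the arrays labelled pcDNA3.1-MEG3 (34.4%) and below on the siRNA arrays (25%).

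**Figure D2:**
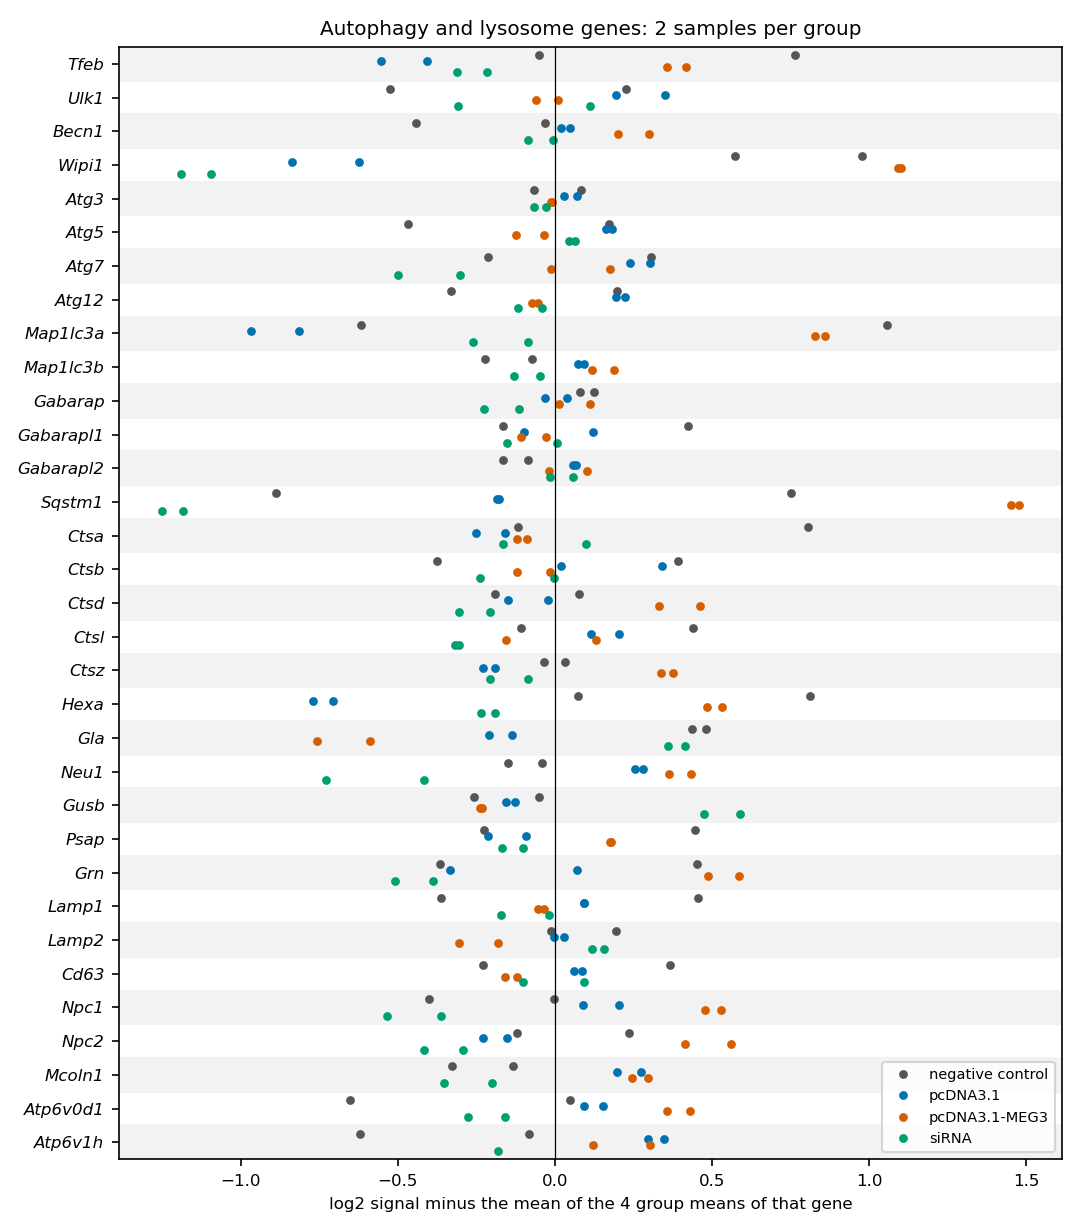
Each of the 33 genes (rows) in the 8 samples, as log2 signal minus the mean of the 4 group means of that gene, with 1 point per sample and colours for the groups; Atp6v1h has 1 siRNA sample. The 2 negative control points (grey) lie far apart for genes such as Map1lc3a and Sqstm1, while the points of the other groups lie close together.

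Tfeb, the transcription factor of the lysosomal genes, was dimmest on the arrays labelled pcDNA3.1. Its samples read -3.82 and -3.01 in the negative control, -4.18 and -4.33 with pcDNA3.1, -3.36 and -3.42 with pcDNA3.1-MEG3, and -3.99 and -4.09 with siRNA. The pcDNA3.1 samples lay below every other sample, next to siRNA, and the pcDNA3.1-MEG3 samples lay between those of the negative control. The difference between the plasmid groups was 0.87 (SE 0.27, limma adjusted p = 0.393) and did not pass.

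Of the initiation genes, Wipi1 had the widest range. Wipi1, whose protein binds the marked lipid on the forming autophagosome, read -1.81 and -1.41 in the negative control, -3.01 and -3.22 with pcDNA3.1, -1.29 and -1.28 with pcDNA3.1-MEG3, and -3.57 and -3.48 with siRNA. The groups did not overlap: pcDNA3.1-MEG3 and the negative control were high, and pcDNA3.1 and siRNA low. Wipi1 fell 3.78-fold on the siRNA arrays against the negative control (log2 difference -1.92, SE 0.18, adjusted p = 0.00349) and 2.84-fold on the arrays labelled pcDNA3.1 (-1.51, SE 0.18, adjusted p = 0.00704). Between the plasmid groups it differed by 1.83 (SE 0.18), 1.83 within the first scan of their shared slide and 1.72 within the second, with an adjusted p of 0.0842 that did not pass. Ulk1, the starting kinase, read from 2.81 to 3.68 over the 8 samples, and its negative control samples (3.56 and 2.81) spanned most of that range. Becn1, which encodes Beclin 1, read 0.56 and 0.97 in the negative control, 1.05 and 1.02 with pcDNA3.1, 1.20 and 1.30 with pcDNA3.1-MEG3, and 0.99 and 0.91 with siRNA, with no difference that passed.

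No conjugation enzyme was called in any comparison. Atg3, the E2-like enzyme that hands ATG8 proteins to lipid, stayed between 2.22 and 2.37 in all 8 samples. Atg5 and Atg12, whose products form the conjugate that directs this step, read from 1.64 to 2.29 and from 2.72 to 3.27, in both cases with the lowest value in negative control replicate 2. Atg7, the E1-like enzyme that starts the cascade, was dimmest on the siRNA arrays, with 0.28 and 0.09 there, 0.89 and 0.37 in the negative control, 0.89 and 0.83 with pcDNA3.1 and 0.57 and 0.76 with pcDNA3.1-MEG3. The siRNA differences of these 4 genes from pcDNA3.1 were -0.67 (SE 0.21, adjusted p = 0.0963) for Atg7 and -0.29 to -0.10 for the other 3.

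Among the ATG8 genes Map1lc3a differed from its relatives on the probes used. Map1lc3a, which encodes LC3A, read -2.72 and -1.05 in the negative control, -2.92 and -3.07 with pcDNA3.1, -1.25 and -1.28 with pcDNA3.1-MEG3, and -2.19 and -2.37 with siRNA. The plasmid groups were 1.73 apart (SE 0.51, adjusted p = 0.361), but the negative control samples alone were 1.67 apart, reaching from near the pcDNA3.1 level to above the pcDNA3.1-MEG3 level. Map1lc3b, which encodes LC3B, stayed between 2.98 and 3.39, Gabarap between 4.31 and 4.66, Gabarapl1 between 3.40 and 3.99 and Gabarapl2 between 2.52 and 2.79. Gabarapl2 was the gene whose 3 negative control arrays lay below the other 9 (12.6% of all genes did so), and no gene of the 32 had them all above (7.27% of all genes). No ATG8 gene passed in any comparison.

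Sqstm1 had the largest difference of the set. Sqstm1, which encodes the cargo receptor p62, read 0.48 and 2.12 in the negative control, 1.18 and 1.19 with pcDNA3.1, 2.82 and 2.85 with pcDNA3.1-MEG3, and 0.18 and 0.12 with siRNA. The pcDNA3.1-MEG3 samples were above and the siRNA samples below all others. Sqstm1 was 6.42-fold lower on the siRNA arrays than on those labelled pcDNA3.1-MEG3 (-2.68, SE 0.49, adjusted p = 0.0192). The comparisons of siRNA with either plasmid group, here and for the genes below, were added after the values had been seen. Between the plasmid groups Sqstm1 differed by 1.65 (SE 0.49, adjusted p = 0.373), and by 1.65 and 1.63 within the 2 scans of their slide. Against negative control replicates 1 and 3 alone, the pcDNA3.1 samples were higher by 0.71, and against replicate 2 alone lower by 0.93, so this gene has no settled direction between the 2 controls.

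**Figure D3:**
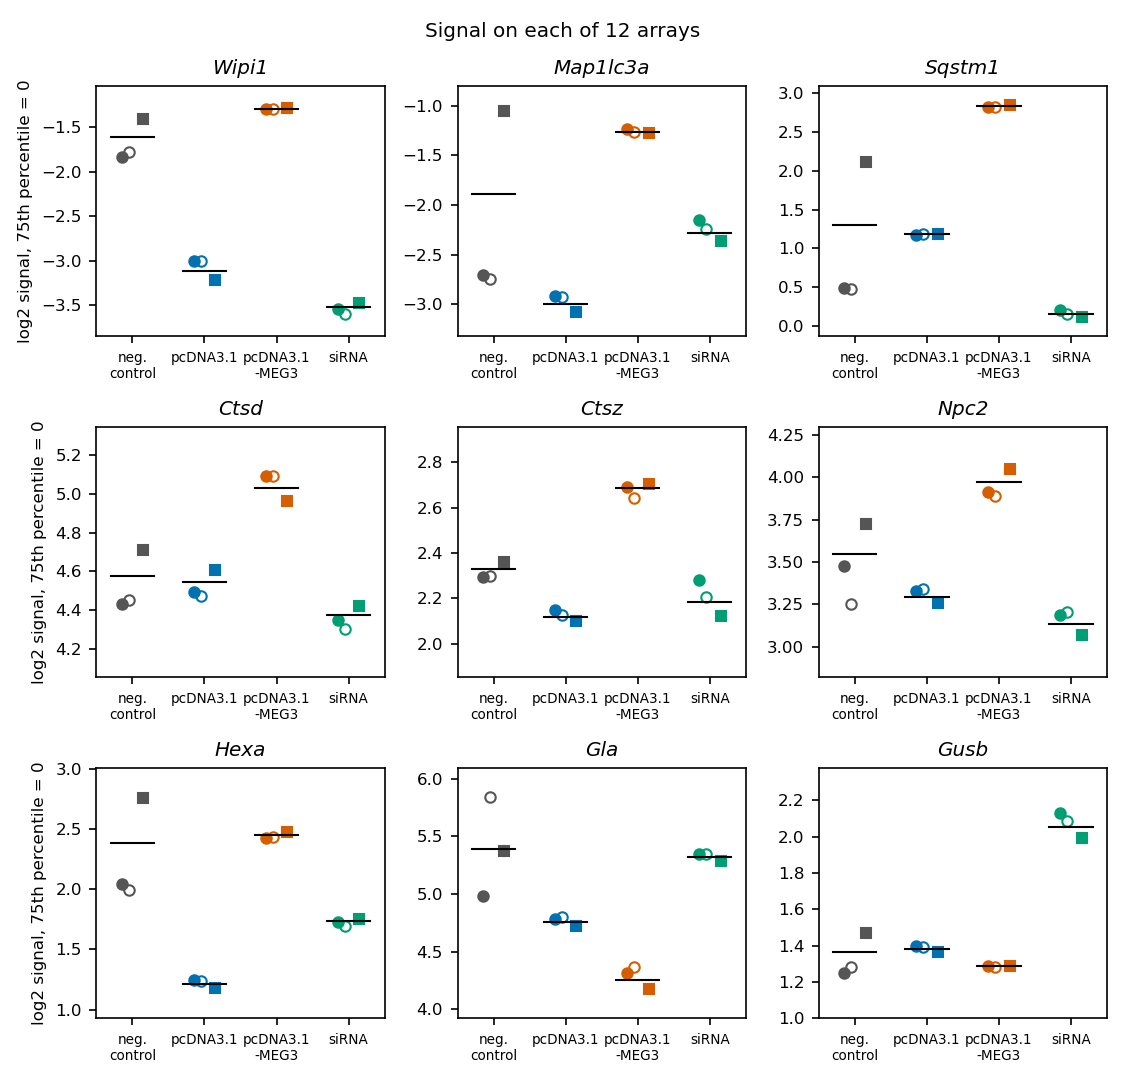
Log2 signal (y axis, 75th percentile of the array at 0; scales differ between panels) of 9 genes on each of the 12 arrays, by group (x axis). Filled circles are replicate 1, open circles replicate 3, squares replicate 2, and lines the mean of the 2 samples. Sqstm1, Ctsd, Ctsz and Npc2 are highest on the arrays labelled pcDNA3.1-MEG3, Hexa is lowest on those labelled pcDNA3.1 and Gusb highest on the siRNA arrays.

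Of the 5 lysosomal proteases, Ctsd and Ctsz were called in 1 comparison and the other 3 in none. Ctsd, the aspartic protease cathepsin D, read 4.44 and 4.71 in the negative control, 4.48 and 4.61 with pcDNA3.1, 5.09 and 4.96 with pcDNA3.1-MEG3, and 4.33 and 4.42 with siRNA. Ctsz, the carboxypeptidase cathepsin Z, read 2.30 and 2.36, 2.14 and 2.10, 2.67 and 2.70, and 2.24 and 2.12 in the same order. Both were highest for pcDNA3.1-MEG3 without overlap, and both were lower on the siRNA arrays than there, with differences of -0.65 for Ctsd (SE 0.15, adjusted p = 0.0394) and -0.50 for Ctsz (SE 0.13, adjusted p = 0.0470). Ctsl, the cysteine protease cathepsin L, was lowest for siRNA (6.26 and 6.24, against at least 6.40 elsewhere), with differences that did not pass. Ctsb, cathepsin B, read 7.24 and 6.47 in the negative control, 6.87 and 7.19 with pcDNA3.1, 6.73 and 6.84 with pcDNA3.1-MEG3, and 6.61 and 6.85 with siRNA. Its pcDNA3.1 samples lay above those of pcDNA3.1-MEG3 and siRNA and between those of the negative control, and no difference passed. Ctsa, the carboxypeptidase that shields other lysosomal enzymes, read 3.28 in negative control replicates 1 and 3 and 2.23 to 2.58 in all other samples.

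The 4 glycosidases each had a pattern of their own. Hexa, the alpha subunit of beta-hexosaminidase, which degrades gangliosides, read 2.02 and 2.76 in the negative control, 1.24 and 1.18 with pcDNA3.1, 2.43 and 2.48 with pcDNA3.1-MEG3, and 1.71 and 1.76 with siRNA. The pcDNA3.1 samples lay below all others, and Hexa was 2.27-fold lower there than in the negative control (-1.18, SE 0.25, adjusted p = 0.0287). The plasmid groups differed by 1.25 (SE 0.25, adjusted p = 0.201), which did not pass. Gla encodes alpha-galactosidase A, which removes galactose from glycolipids. Between the plasmid groups it went opposite to Hexa, but like Hexa it was lower with pcDNA3.1 than in the negative control. It read 5.41 and 5.37 in the negative control, 4.80 and 4.72 with pcDNA3.1, 4.34 and 4.17 with pcDNA3.1-MEG3, and 5.35 and 5.29 with siRNA. The negative control value of 5.41 is a mean of 2 arrays that read 4.99 and 5.84, so the close agreement of the 2 samples understates its spread. With those arrays kept as 2 samples the difference between pcDNA3.1 and the negative control no longer passed (-0.64, adjusted p = 0.0890, range 0.00739 to 0.148 over 19 alternatives). Gla fell 2.19-fold for pcDNA3.1-MEG3 against the negative control (-1.13, SE 0.13, adjusted p = 0.00685) and was 2.09-fold higher on the siRNA arrays than on those labelled pcDNA3.1-MEG3 (1.06, SE 0.13, adjusted p = 0.00617).

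Gusb, beta-glucuronidase, was the gene in which the siRNA group stood alone. It read 1.26 and 1.47 in the negative control, 1.39 and 1.36 with pcDNA3.1, 1.28 and 1.29 with pcDNA3.1-MEG3, and 2.11 and 1.99 with siRNA. It rose 1.61-fold against the negative control (0.68, SE 0.14, adjusted p = 0.0326), 1.59-fold against pcDNA3.1 (0.67, adjusted p = 0.0345) and 1.70-fold against pcDNA3.1-MEG3 (0.77, adjusted p = 0.0182). It was the 1 gene of the 33 called in the same direction against each other group for siRNA, as 3.95% of all genes were, and these 3 comparisons share the siRNA samples. Neu1, the sialidase that trims sialic acid, was lowest for siRNA, with 2.07 and 1.97 in the negative control, 2.40 and 2.37 with pcDNA3.1, 2.48 and 2.55 with pcDNA3.1-MEG3 and 1.70 and 1.39 with siRNA. It was 1.79-fold lower than for pcDNA3.1 (-0.84, SE 0.15, adjusted p = 0.0256) and 1.96-fold lower than for pcDNA3.1-MEG3 (-0.97, SE 0.15, adjusted p = 0.0127). Its difference from the negative control was -0.48 (adjusted p = 0.104) and did not pass.

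Neither cofactor gene was called in any comparison. Grn, which encodes progranulin, a precursor of lysosomal granulins, read 2.89 and 3.70 in the negative control, 2.92 and 3.32 with pcDNA3.1, 3.74 and 3.84 with pcDNA3.1-MEG3, and 2.86 and 2.74 with siRNA. Its difference between siRNA and pcDNA3.1-MEG3 was -0.98 (SE 0.29, adjusted p = 0.0729) and did not pass. Psap, which encodes the precursor of the saposins that help glycosidases reach lipids, read from 3.82 to 4.50, and both of these extremes were negative control samples. Its means were 4.23 with pcDNA3.1-MEG3, 3.90 with pcDNA3.1 and 3.91 with siRNA.

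The cholesterol exporters were high on the arrays labelled pcDNA3.1-MEG3 and lower on the siRNA arrays than on those. Npc1, the membrane transporter that moves cholesterol out of lysosomes, read -1.78 and -1.38 in the negative control, -1.29 and -1.17 with pcDNA3.1, -0.90 and -0.85 with pcDNA3.1-MEG3, and -1.74 and -1.91 with siRNA. Npc2, the soluble protein that passes cholesterol to it, read 3.37 and 3.72, 3.33 and 3.26, 3.90 and 4.05, and 3.19 and 3.07 in the same order. On the siRNA arrays Npc1 was 1.94-fold lower than on those labelled pcDNA3.1-MEG3 (-0.95, SE 0.18, adjusted p = 0.0205) and Npc2 1.79-fold lower (-0.84, SE 0.17, adjusted p = 0.0253). Against the negative control the siRNA differences did not pass: -0.25 for Npc1 (SE 0.18, limma adjusted p = 0.428) and -0.41 for Npc2 (SE 0.17, limma adjusted p = 0.177). The Npc1 samples of these groups overlapped. Mcoln1, the calcium channel mucolipin 1, was higher in both plasmid groups (1.61 to 1.71) than in the negative control (1.28 and 1.08) and siRNA samples (1.21 and 1.06). These groups did not overlap, but its differences did not pass (0.47, SE 0.14, adjusted p = 0.0728 with pcDNA3.1 and 0.50, SE 0.14, adjusted p = 0.0693 with pcDNA3.1-MEG3 against the negative control).

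Lamp1 and Lamp2, the main glycoproteins of the lysosomal wall, and Cd63, a tetraspanin of late endosomes, did not change by the test in any comparison. Lamp1 read 7.19 and 6.37 in the negative control and 6.56 to 6.82 elsewhere, and Cd63 6.54 and 5.94 against 6.01 to 6.26, so that the negative control held both extremes. Lamp2 read 4.65 and 4.77 with pcDNA3.1-MEG3 and 4.94 to 5.14 in the other groups, lower without overlap on this probe (-0.33, SE 0.14, adjusted p = 0.157 against the negative control). The other Lamp2 probe, A_55_P2102126, did not show this order: its means were 3.67 in the negative control, 4.16 with pcDNA3.1, 3.95 with pcDNA3.1-MEG3 and 3.83 with siRNA. Of the proton pump subunits, Atp6v0d1 read 1.36 and 2.06 in the negative control, 2.16 and 2.10 with pcDNA3.1, 2.36 and 2.44 with pcDNA3.1-MEG3 and 1.85 and 1.73 with siRNA. Atp6v1h read 1.30 and 1.84, 2.27 and 2.22, and 2.05 and 2.23 in the first 3 groups, and 1.75 in siRNA, where it had 1 sample because its spots on replicate 2 were outlying. Neither subunit passed in any comparison.

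By its labels the comparison of pcDNA3.1-MEG3 with pcDNA3.1 was meant to address overexpression, but the Meg3 signal lay on the arrays labelled pcDNA3.1. It is the 1 comparison whose groups shared a slide. Wipi1, Map1lc3a, Sqstm1 and Hexa were 2.37-fold to 3.54-fold higher on the arrays labelled pcDNA3.1-MEG3, and Tfeb 1.82-fold, but 0 of 33 genes passed limma's test, as did 0.00814% of all genes. At an unadjusted p under 0.05 there were 9 of 33 (27.3%), against 10.2% of all genes: Wipi1, Map1lc3a, Sqstm1, Hexa, Tfeb, Npc2, Ctsz and Ctsd higher and Gla lower. The median difference was 0.06, against -0.16 over all genes. The fit shares 1 spread over all groups, so the negative control samples enter this result although they are not compared. A lone negative control sample adds nothing to that spread, so leaving out either sample gives the same fit here. The same holds for siRNA against either plasmid group, and the 2 omissions are 1 result and not 2 checks. With either negative control sample left out, the same 8 of 33 genes passed (9.8% of all genes): Wipi1, Map1lc3a, Sqstm1, Hexa, Tfeb, Npc2 and Ctsz were higher (5.89% of all genes) and Gla was lower (3.91%). With only the 2 plasmid groups in the fit 7 of 33 passed (7.98% of all genes, 5.46% higher and 2.52% lower), the same without Gla. The adjusted p of Wipi1 was 0.00558 without either negative control sample and ranged from 6.15e-05 to 0.865 over 20 alternatives.

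The comparison of siRNA with the negative control addresses the knockdown. Here 1 of 33 genes rose, Gusb, and 1 fell, Wipi1, against 7.75% of all genes higher and 4.64% lower (12.4% either way). The median was -0.15, against 0.06 over all genes, and 4 of 33 (12.1%) had an unadjusted p under 0.05, against 28.8% of all genes. Gusb did not pass when either pcDNA3.1 sample, either pcDNA3.1-MEG3 sample or siRNA replicates 1 and 3 were left out, where 1025 to 1950 of all genes were called in place of 3039, and its adjusted p ranged from 6.36e-05 to 0.260 over 19 alternatives. Wipi1 passed in each of those cases, but not with only the 2 groups in the fit, where 0 of 33 genes passed limma's test (0.644% of all genes) and its adjusted p was 0.0872, the highest over its 19 alternatives (lowest 1.93e-06). Without negative control replicate 2, 9 of 33 genes passed (30% of all genes), and without its replicates 1 and 3, 10 did (30.4%). Wipi1 and Sqstm1 were lower and Gusb higher in both cases, Sqstm1 by 0.33 and 1.97. The siRNA arrays were on a slide of their own, as were the negative control arrays, so that slide and group cannot be told apart.

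The siRNA arrays also differed most from those labelled pcDNA3.1-MEG3, in a comparison added after the values had been seen. Sqstm1, Wipi1, Neu1, Npc1, Npc2, Ctsd and Ctsz were lower, and Gla and Gusb higher, on the siRNA arrays. These are 7 of 33 lower and 2 of 33 higher, against 7.41% and 9.77% of all genes (17.2% either way), with a median of -0.30 against -0.06 over all genes. Of all genes 4215 were called here. Leaving out either pcDNA3.1-MEG3 sample left 1 of the 33, Wipi1, and 708 or 781 of all genes. Leaving out either pcDNA3.1 sample left 4 (Wipi1, Sqstm1, Gla and Neu1) and 2403 of all genes. Without siRNA replicate 2 there were 5 and 4655 of all genes, and without its replicates 1 and 3 there were 6 and 4253 of all genes. Without either negative control sample 19 of 33 passed (37.2% of all genes), and with only the 2 groups in the fit 15 did (30% of all genes). Median centring of the arrays moved the median of all genes from -0.06 to 0.15 and that of these genes from -0.30 to -0.10, so the genes lay below the rest under both scalings. Against pcDNA3.1, in a comparison also added then, siRNA had 1 gene higher, Gusb, and 1 lower, Neu1 (6.69% and 4.84% of all genes, 11.5% either way); 0 passed when siRNA replicate 2 (4019 of all genes called) or any 1 plasmid sample (627 to 1093 of all genes) was left out, and 13 when a negative control sample was (31% of all genes).

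**Figure D4:**
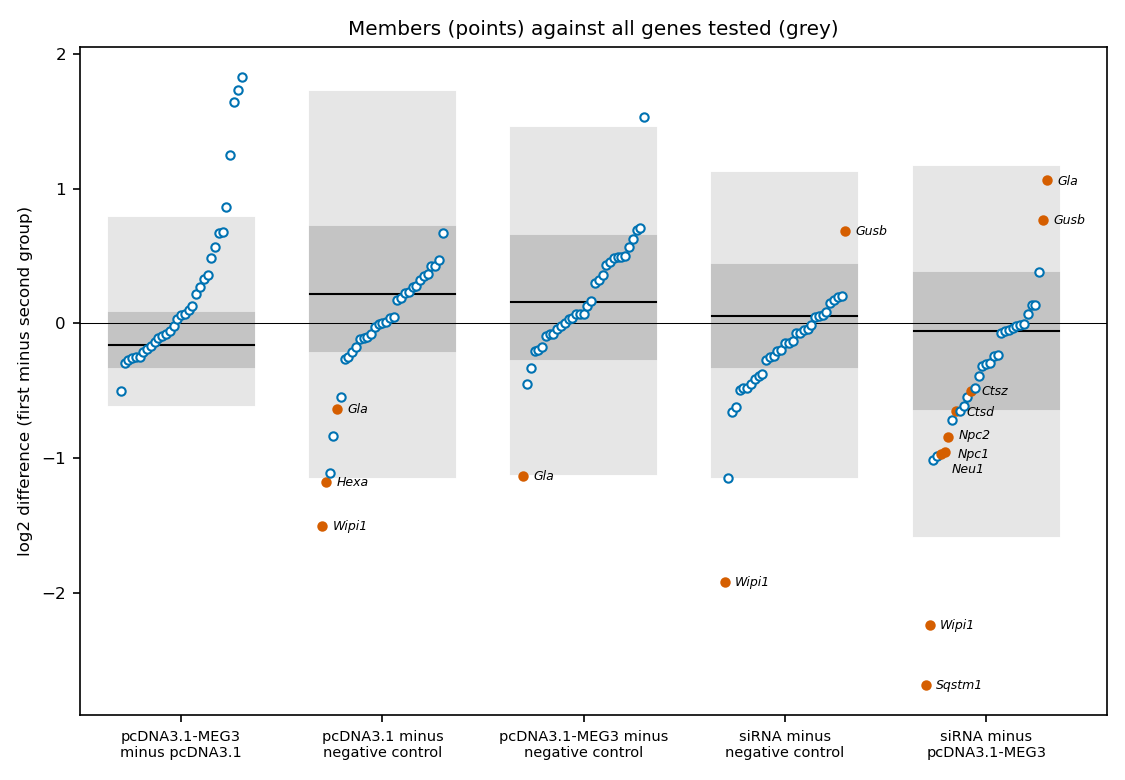
Log2 differences of the 33 genes in 5 comparisons (x axis), each point a gene in order of size, filled and named where limma's adjusted p was under 0.05. Grey boxes show the 5th to 95th and 25th to 75th percentiles over all genes tested and the black line their median. Wipi1 and Sqstm1 lie below the grey boxes in the comparison of siRNA with pcDNA3.1-MEG3, and 5 unfilled points (Wipi1, Map1lc3a, Sqstm1, Hexa and Tfeb) lie above them between the plasmid groups.

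Where the arrays labelled pcDNA3.1 stood apart, they were low. Hexa, Map1lc3a and Tfeb read lower on all 3 of these arrays than on the other 9, by 0.45, 0.18 and 0.080, which is 3 of 32 genes (9.38%) against 3.23% of all genes. None of the 32 read higher on all 3, against 15.6% of all genes. Hexa, Map1lc3a and Tfeb were also the 3 genes below without negative control replicate 2 (3.41% of all genes) and without replicates 1 and 3 (5.85%). Without replicate 2, 1 of 32 read higher for pcDNA3.1, Atg3 (15.9% of all genes). Without replicates 1 and 3, 5 did: Atg12, Ulk1, Atg5, Atg7 and Lamp1 (21.1% of all genes). The absence of genes standing apart as high thus depended on the negative control samples kept. By the stricter rule, called by limma in the same direction against each of the other groups, 0 of 33 genes stood apart, as did 0.00814% of all genes. For Hexa and Tfeb the siRNA samples came nearest, above pcDNA3.1 by 0.52 for Hexa (SE 0.25, limma adjusted p = 0.201) and by 0.22 for Tfeb (SE 0.27, limma adjusted p = 0.599). For Map1lc3a the nearest were negative control replicates 1 and 3 (-2.72), and siRNA lay above pcDNA3.1 by 0.72 (SE 0.51, limma adjusted p = 0.349). Hexa was called low under that rule with only the compared groups in the fit. In that setting 7.98% of all genes were called between the plasmid groups, against 0.00814% in the main fit. The share of all genes standing apart in that setting is not given here, so this call is not a result particular to Hexa. Wipi1 was low for pcDNA3.1 as well, but the siRNA samples were lower, so pcDNA3.1 was not alone there.

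Compared with the negative control, 3 of 33 genes were lower with pcDNA3.1, Wipi1, Hexa and Gla, and 0 were higher, against 6.64% and 11.3% of all genes (17.9% either way). At an unadjusted p under 0.05 there were 6 of 33 (18.2%, against 35.7% of all genes), and the median was 0.005 against 0.22 over all genes. The arrays labelled pcDNA3.1-MEG3 had 1 of 33 lower, Gla, and 0 higher (6.59% and 7.48% of all genes, 14.1% either way), with 10 of 33 at an unadjusted p under 0.05 (30.3%, against 33.2% of all genes). The 2 negative control samples gave different lists. With replicates 1 and 3 alone, 10 genes passed for pcDNA3.1 (30.3% of all genes) and 21 with pcDNA3.1-MEG3 (37.9%), and with replicate 2 alone 13 (37.4%) and 5 (25.5%). Wipi1, Hexa, Gla and Tfeb were lower for pcDNA3.1 against both, and Sqstm1, Npc1 and Mcoln1 higher and Gla lower for pcDNA3.1-MEG3 against both. Gla did not pass for pcDNA3.1-MEG3 when either of its own samples was left out (-1.05 and -1.22), nor for pcDNA3.1 when any plasmid sample was. Hexa was lost for pcDNA3.1 in those same cases and Wipi1 without pcDNA3.1 replicates 1 and 3. Median centring moved the median of all genes for pcDNA3.1 from 0.22 to -0.23 and that of these genes from 0.005 to -0.44. These comparisons share the negative control samples and span slides.

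The second probes of 7 genes did not always follow the one used. For Ctsd the other probe, A_65_P13209, had group means of -2.16 in the negative control, -4.15 with pcDNA3.1, -0.36 with pcDNA3.1-MEG3 and -3.59 with siRNA. Its plasmid difference was 3.79 (SE 0.95) where the used probe, A_51_P384629, gave 0.48 (SE 0.16), the same direction at a larger size. Its lowest group was pcDNA3.1 and not siRNA. For siRNA against pcDNA3.1 it gave 0.56 (SE 0.95), opposite to the used probe (-0.17, SE 0.16). For Atg7 the other probe, A_55_P2151762, differed by 2.12 (SE 0.55) between the plasmid groups, opposite to the used probe (-0.19, SE 0.21), and passed the background flag on 1 of 3 siRNA arrays. The other Wipi1 probe gave 0.75 (SE 0.35) between the plasmid groups and -0.75 (SE 0.35) for siRNA against the negative control, the same directions as the used one. The other Lamp2 probe, A_55_P2102126, went opposite to the used one against the negative control for pcDNA3.1-MEG3 (0.28, SE 0.15, where the used probe gave -0.33, SE 0.14) and for pcDNA3.1 (0.49 and -0.08). It was also opposite for siRNA against pcDNA3.1-MEG3 (-0.12 and 0.38), and in the same direction between the plasmid groups (-0.21 and -0.26). The other Gabarap probe, A_51_P295312, was highest with pcDNA3.1-MEG3 (4.47), against 4.09 in the negative control, 4.03 with pcDNA3.1 and 3.98 with siRNA. Its plasmid difference was 0.44 (SE 0.20), where the used probe gave 0.06 (SE 0.13). For siRNA against the negative control the other Ctsa probe gave -0.50 (SE 0.14) and the used one -0.38 (SE 0.31). The other Atg12 probe gave 0.22 (SE 0.13) there and the used one -0.01 (SE 0.20). Which transcripts each probe detects was not analysed here.

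Of 147 other genes of the pathway, 144 were tested: further autophagy and receptor genes, hydrolases, membrane proteins, pump subunits and nutrient sensors. Between the plasmid groups 0 of 144 passed (0.00814% of all genes), with 19 at an unadjusted p under 0.05 (13.2%, against 10.2% of all genes). The median was -0.13, against -0.16 over all genes. For siRNA against the negative control 8 of 143 rose and 7 fell, as did 7.75% and 4.64% of all genes. Ctsc, the aminopeptidase cathepsin C, rose by 4.56 (SE 0.13, adjusted p = 0.000241), from -5.48 to -0.92. Prkaa2, a catalytic subunit of the energy sensor AMPK, rose by 1.47 and the cysteine protease Ctss by 1.09. Those that fell most were Dnase2a, a lysosomal DNase (-2.56), Optn, a cargo receptor (-1.31, past the background flag on 2 of 3 siRNA arrays), and Sort1, a sorting receptor (-1.23).

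Dnase2a and Prkaa2 differed from the negative control in the plasmid groups too. For pcDNA3.1 15 of 144 rose (11.3% of all genes), led by Prkaa2 (1.54), the pump subunit Atp6v1a (1.17) and Atg9a (1.15). Atg9a encodes a lipid scramblase of the forming autophagosome. With pcDNA3.1 6 fell (6.64% of all genes), led by Dnase2a (-2.14), the mTORC1 activator Rheb (-0.92) and the sulfatase Galns (-0.80). For pcDNA3.1-MEG3 6 rose (7.48% of all genes), led by the pump subunit Atp6v0e2 (1.27), Prkaa2 (1.25) and Ctss (1.09). With pcDNA3.1-MEG3 7 fell (6.59% of all genes), led by Dnase2a (-2.49), the sialic acid exporter Slc17a5 (-1.18) and Rheb (-1.08). Dnase2a was called high and Prkaa2, Ctss and Atp6v0e2 low in the negative control against each other group. Over all genes 485 were called high and 570 low in that way.

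Between siRNA and pcDNA3.1-MEG3 9 of 143 other genes were higher and 11 lower, as were 9.77% and 7.41% of all genes. Ctsc (4.77), Galns (1.07) and the kinase Ulk2 (1.03) led the first, and the cargo receptors Optn (-1.82) and Nbr1 (-1.21) and the kinase Stk11 (-1.17), which activates AMPK, the second. Between siRNA and pcDNA3.1, 4 were higher (6.69% of all genes), led by Ctsc (4.65), Galns (0.81) and Ulk2 (0.78). The 4 that were lower (4.84% of all genes) were led by the peptidase Tpp1 (-0.97), the membrane protein Mfsd8 (-0.89) and Tecpr1 (-0.72), which acts in autophagosome fusion.

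Other gene groups moved with the same arrays, and their part in these results was not tested. All 10 contractile genes listed were called higher on the siRNA arrays than in the negative control, as were 7.75% of all genes. Their summed log2 signal was 5.60 to 5.79 on the siRNA arrays against -0.04 to 1.08 elsewhere. The 10 interferon response genes summed to 6.17 to 6.47 on plasmid arrays and 1.25 to 2.19 on the others. Myoblast markers (8 of 8 tested) summed to 5.18 to 5.45 in the negative control and plasmid groups and 6.18 to 6.26 with siRNA, with Myf5 above background on 0 of 3 pcDNA3.1-MEG3 and 1 of 3 pcDNA3.1 arrays. These markers did not all rise: against the negative control 5 of 8 read higher with siRNA, with 4 called higher and 1 lower. Lower with siRNA were Myf5 (difference -2.87), Des (-2.996, and -2.773 in the negative control) and Pax7 (-4.59 and -4.30). Pax7 exceeded background on 1 of 3 siRNA arrays. Macrophages are rich in lysosomes; 7 of 10 of their markers were tested, and these summed to 1.51 to 1.73 in the negative control, 1.70 to 1.83 with pcDNA3.1, 1.76 to 1.84 with pcDNA3.1-MEG3 and 1.24 to 1.49 with siRNA. Of the 7, 2 were called higher and 1 lower for siRNA against the negative control (7.75% and 4.64% of all genes). Mrc1 read -5.96 in the negative control, -4.93 with pcDNA3.1, -5.39 with pcDNA3.1-MEG3 and -3.31 with siRNA, and Csf1r read -1.71, -1.92, -2.10 and -0.90 in the same order. The others tested were lower with siRNA than in the negative control: Ptprc (-6.10 and -5.81), Adgre1 (-4.17 and -3.84), Lyz2 (-7.06 and -5.59), Cd14 (0.38 and 0.55) and Itgam (-0.94 and 0.17). Lyz2 exceeded background on 0 of 3 siRNA and 0 of 3 pcDNA3.1 arrays, and Tyrobp on 0 of 3 arrays in every group but pcDNA3.1-MEG3 (2 of 3). Endothelial markers (4 of 5 tested) summed to -0.16 to 0.44. In RNA from whole cultures, fewer cells of a type and less RNA per cell cannot be told apart.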

How the data were processed

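Each of 12 arrays held 44397 spots read in 1 colour. Per the file headers, the deposited intensity of each spot was made with Agilent Feature Extraction 11.0.1.1, which subtracted background within the array, and the design names build mm9; flags per spot (well above background, outlying, saturated) are in the same files. The authors' deposited series table, of linear intensity with the scaling unstated, served as an alternative.

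Control and outlying spots were left out, spots of a probe averaged, and log2 signal centred on each array's 75th percentile. A probe was kept if all arrays of some group had it well above background (29603 of 39429 probes), named through RefSeq accessions (27234 matched) and reduced to the brightest per gene (24568 genes). limma 3.58.1 in R 4.3.3 fitted all 4 groups together over 8 samples (4 residual degrees of freedom), two-sided, with Benjamini-Hochberg adjustment over all genes tested, and genes were called at an adjusted p under 0.05. The fit was tested on simulated data. The deposited files hold no mean spot signal, so the normexp alternative used median intensity, and a local background above 10 times the array's median took that median. Adjusted p values are limma's. The 33 genes, the lists and the rules were chosen with earlier results of these data known. Every one of the 33 is named; of other pathway genes, the 3 called with the largest difference each way per comparison. Precision is limited by the number of arrays.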

Additional observations from a re-analysis of the deposited data

How the results depend on the processing

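Every called difference of the 33 genes kept its direction in all alternatives, and 234 of 323 such values stayed past the threshold, while 89 did not; of 100 values for the 5 largest plasmid differences, which were not called, 24 passed. Counting the 12 arrays as 12 samples gave 9 genes between the plasmid groups, 8 for siRNA and 14 and 16 for the groups labelled pcDNA3.1 and pcDNA3.1-MEG3 against the negative control, 19 for siRNA against pcDNA3.1-MEG3, 11 for siRNA against pcDNA3.1, 1 apart for pcDNA3.1 and 113 other pathway genes called in at least 1 of the 4 planned comparisons (35 in the main setting). Keeping negative control replicates 1 and 3 as 2 samples gave 1 plasmid gene, 9 for pcDNA3.1-MEG3 and 57 other pathway genes. With only the compared groups in the fit there were 7 plasmid genes, 0 for siRNA against the negative control, 15 and 8 for siRNA against pcDNA3.1-MEG3 and pcDNA3.1, and 1 apart for pcDNA3.1. The share of all genes called changed too, between the plasmid groups from 0.00814% in the main fit to 7.98% here. For siRNA against the negative control it went from 12.4% to 0.644%. The counts in this paragraph therefore describe the settings and are not results about the 33 genes. Quantile normalisation gave 1 plasmid gene, 5 and 4 genes for the groups labelled pcDNA3.1 and pcDNA3.1-MEG3 against the negative control, and 4 for siRNA against pcDNA3.1. Median centring gave 1 for siRNA against the negative control, and 7 and 2 for the groups labelled pcDNA3.1 and pcDNA3.1-MEG3. The authors' deposited series table gave 1 plasmid gene, 4 for pcDNA3.1-MEG3 against the negative control and 5 for siRNA against pcDNA3.1, and requiring signal on all 12 arrays gave 1, 3 and 4. With no filter on dim probes there was 1 for siRNA against the negative control, 0 against pcDNA3.1 and 19 other pathway genes, and averaging a gene's probes gave 2 for pcDNA3.1-MEG3 against the negative control. Leaving out 1 sample gave 0 to 8 plasmid genes, 1 to 10 for siRNA, 0 to 13 for the group labelled pcDNA3.1 and 0 to 21 for pcDNA3.1-MEG3 against the negative control, 1 to 19 for siRNA against pcDNA3.1-MEG3, 0 to 13 against pcDNA3.1, 0 to 2 apart for pcDNA3.1 and 3 to 103 other pathway genes. A lone sample left in a group was assumed to vary like the other groups. Apart from the fits with fewer samples, the cause was not tested. The replicate numbers did not pair the samples (correlations of same-numbered arrays' deviations from -0.12 to 0.033). With replicate number as a block there were 0 plasmid genes, 1 for siRNA, 2 for the group labelled pcDNA3.1 and 1 for pcDNA3.1-MEG3 against the negative control, 6 for siRNA against pcDNA3.1-MEG3, 0 against pcDNA3.1, 0 apart and 18 other pathway genes. With 2 samples a group, small differences were not detectable.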
